A study of Mus musculus with 2 samples.

Results

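The 10 circadian clock genes Arntl, Clock, Per1, Per2, Per3, Cry1, Cry2, Nr1d1, Nr1d2 and Dbp were followed through the cell classes of mouse inguinal white fat (iWAT), which lies under the skin. They were taken by name, and 10 of 10 were found among the 31053 genes of both count matrices. Single-nucleus RNA sequencing had been run on 1 library with the genotype Lexis WT and 1 with the genotype Lexis KO, each made from the pooled iWAT of 3 male mice after 4 weeks of Western diet. The sample labels say that the fat was taken without its lymph node. Lexis is a long noncoding RNA, its floxed allele was deleted with Adipoq-cre (a Cre driven by the promoter of the adipocyte hormone gene Adipoq), and the controls were littermates. Most mice of the study were young adults, and the age of those behind these libraries and the hour at which their tissue was taken are not given in the sources used here. The deletion was directed at adipocytes, so the other classes were not its target. File names and sample labels disagree on the genotype of both libraries, and Lexis has no row by which to check, so the names labelled-WT library and labelled-KO library follow the labels as given. With 1 library per genotype there is no replicate, no test was made, and each interval below is a 95% interval that covers counting error only. Genotype, hour of collection and handling cannot be told apart.

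The clock is a feedback loop that runs in nearly every mammalian cell. ARNTL (also called BMAL1) and CLOCK bind DNA as a pair at E-box sequences and switch on the Per and Cry genes, whose proteins then block the pair. The same pair switches on Nr1d1 and Nr1d2, which encode the REV-ERB repressors of Arntl, and Dbp, which encodes an activator that binds D-box sequences. In mouse fat and liver Arntl transcript is therefore high at the time of day when Dbp, Nr1d1 and Nr1d2 transcripts are low, and low when they are high.

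Nuclei with at least 500 genes and at most 5% of unique molecular identifiers (UMIs, which count captured molecules) from mitochondrial genes were kept. The matrices held 9376351 UMIs (labelled WT) and 19655049 UMIs (labelled KO), and 3503 and 2852 nuclei were kept, with medians of 1195 and 3879 UMIs per nucleus. The 5 classes compared, named from their markers, were adipocytes (417 and 894 nuclei), adipogenic stem and precursor cells with fibroblasts (ASPCs, 300 and 786), myeloid cells (332 and 838), endothelial cells (94 and 122) and lymphocytes (2100 and 107). Adipocyte, ASPC and myeloid nuclei fell mostly into different clusters in each library, whereas the endothelial nuclei of both lay in 1 cluster. Lymphocytes were thus 2100 of the 3503 nuclei of the labelled-WT library, which also held all 150 nuclei of an unnamed cluster led by genes that include Ccl19 and Ccl21a, chemokines of lymph node stroma, and 100 of 109 nuclei of an unnamed cluster led by genes that include Ccl22. These values stand beside the stated removal of the lymph node, and whether node tissue remained was not tested. Lymphocytes of the labelled-WT library were mostly B and T cells by their leading genes (Ighd and Cd79a, Cd3d and Cd8a). Those of the labelled-KO library lay mostly in clusters led by the natural killer genes Klra8 and Ncr1 (59 nuclei) and by Iglc1 and Il5ra (31). The files shared 12 barcodes between libraries.

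Of 10 members, 9 had promoter windows in the RefSeq table (build GRCm38.p6, 250 bases before a start site to 50 after it), 13 windows in all. These were searched on both strands for the E-box CACGTG, its variant CACGTT, the D-box TTATGTAA and TAGGTCA, the core of the element that REV-ERB and ROR proteins share. No motif is contained in another. Each of the windows below held 1 or 2 of them, in capitals, and they are shown because they carry the letters through which the members are known to regulate each other.
Arntl (chr7:113207261-113207560, plus strand, TAGGTCA 31 bases into the transcript): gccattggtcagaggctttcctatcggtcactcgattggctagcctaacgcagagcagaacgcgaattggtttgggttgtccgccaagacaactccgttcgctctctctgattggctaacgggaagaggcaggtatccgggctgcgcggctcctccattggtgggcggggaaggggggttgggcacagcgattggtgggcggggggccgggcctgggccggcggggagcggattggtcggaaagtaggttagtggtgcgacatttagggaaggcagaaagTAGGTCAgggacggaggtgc
Per1 (chr11:69098699-69098998, plus strand, E-box 166 bases before the start): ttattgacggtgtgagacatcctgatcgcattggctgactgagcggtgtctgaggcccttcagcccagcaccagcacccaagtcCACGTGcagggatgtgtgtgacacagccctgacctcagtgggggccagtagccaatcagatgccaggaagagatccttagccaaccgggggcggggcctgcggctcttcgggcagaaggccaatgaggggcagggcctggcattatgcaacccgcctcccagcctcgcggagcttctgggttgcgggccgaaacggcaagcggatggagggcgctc
Per3 (chr4:151044616-151044915, minus strand, D-boxes 205 and 158 bases before the start): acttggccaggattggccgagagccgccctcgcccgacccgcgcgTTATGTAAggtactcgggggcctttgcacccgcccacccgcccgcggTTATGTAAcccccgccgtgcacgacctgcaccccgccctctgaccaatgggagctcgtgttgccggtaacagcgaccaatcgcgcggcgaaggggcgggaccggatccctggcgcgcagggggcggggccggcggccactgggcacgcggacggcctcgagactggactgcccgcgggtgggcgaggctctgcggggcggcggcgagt
Cry1 (chr10:85185005-85185304, minus strand, E-box variant and E-box 79 and 60 bases before the start): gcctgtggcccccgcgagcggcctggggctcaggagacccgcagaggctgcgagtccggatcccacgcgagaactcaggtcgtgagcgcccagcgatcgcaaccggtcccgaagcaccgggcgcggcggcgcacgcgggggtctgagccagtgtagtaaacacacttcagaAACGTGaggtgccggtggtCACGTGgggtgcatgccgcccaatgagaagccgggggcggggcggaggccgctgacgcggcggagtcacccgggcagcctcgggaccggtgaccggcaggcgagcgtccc
Nr1d1 (chr11:98775328-98775627, minus strand, E-box variant 28 bases before the start): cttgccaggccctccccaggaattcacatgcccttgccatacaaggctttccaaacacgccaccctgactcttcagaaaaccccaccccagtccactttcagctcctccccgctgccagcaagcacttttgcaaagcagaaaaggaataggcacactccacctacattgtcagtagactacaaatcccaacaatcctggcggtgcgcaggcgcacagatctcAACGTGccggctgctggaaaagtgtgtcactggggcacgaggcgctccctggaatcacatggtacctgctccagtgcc
Of all 32851 windows in the table, 7.15% held the E-box, 4.68% the variant, 0.938% the D-box and 2.61% the TAGGTCA core. Cry2 held 1 E-box variant, and the windows of Clock, Nr1d2 and Dbp held none of the letters searched. Per2 had no window in the table.

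Several clock genes differed between the libraries in opposite directions within the loop, and others did not follow this arrangement. In adipocytes, ASPCs and myeloid cells, Nr1d2 and Per2 were 3.33 to 10.8 times higher in the labelled-KO library, Per3 was 1.87 to 3.33 times higher and Dbp 2.50 to 8.98 times higher, while Arntl was lower in each. Of the 2 main myeloid clusters of the labelled-KO library, the smaller had Per3 and Dbp levels below those of labelled-WT myeloid cells and Per2 and Nr1d2 intervals that overlapped theirs, so the myeloid ratios of these 4 genes came mainly from the larger. Endothelial cells had the same arrangement for Arntl, Per2 and Nr1d2 on small counts, and lymphocytes did not show it. In adipocytes Nr1d1 (ratio 0.634) and Cry2 (0.721) were lower in the labelled-KO library, as Arntl was (0.738). Under another scaling given below, the intervals of these 3 adipocyte ratios held 1. Over the 50 pairs of gene and class, 36 had at least 50 counts summed over both libraries, and of these 14 were at least 2-fold higher and 3 at least 2-fold lower in the labelled-KO library. Of all genes tested, 16.1% (lymphocytes) to 32.4% (endothelial cells) were that much higher and 8.60% (ASPCs) to 19.6% (lymphocytes) that much lower. The text below gives each level as counts per 1000000 UMIs of the class (CPM), and each ratio as labelled KO over labelled WT.

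**Figure D1:**
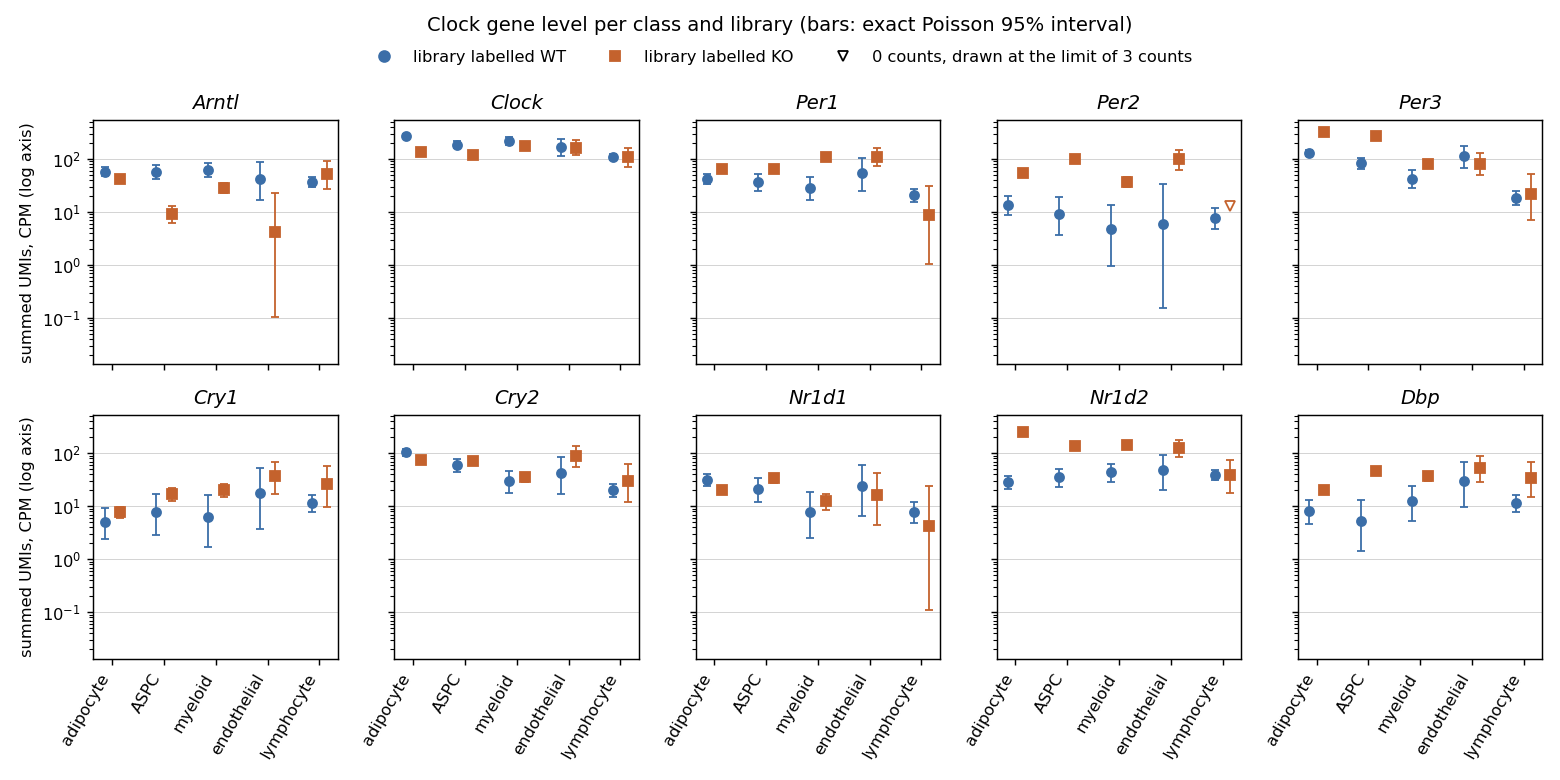
Summed UMIs of each clock gene as CPM (log axis) in 5 cell classes, circles for the labelled-WT library and squares for the labelled-KO library, with exact Poisson 95% intervals and an open triangle at the limit of 3 counts where a gene had 0 counts. Nr1d2 and Per2 lie higher in the labelled-KO library in the first 4 classes, Arntl lies lower there, and in lymphocytes the intervals of both libraries overlap for Arntl and Nr1d2 while Per2 of the labelled-KO library is drawn at its limit.

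The activators were read first. Arntl (chr7:113178471-113314126, 135656 bases, build GRCm38.p6) encodes the partner of CLOCK whose transcript cycles most. Its level in the labelled-WT library was 57.1 CPM in adipocytes (111 counts, interval 47.0 to 68.7), 57.2 in ASPCs (44 counts), 62.6 in myeloid cells (40), 41.8 in endothelial cells (7) and 36.6 in lymphocytes (94). The intervals of neighbours in the order of levels overlapped, while that of lymphocytes (29.6 to 44.8) lay below that of adipocytes. Its level in the labelled-KO library was 52.1 CPM in lymphocytes (12 counts), 42.1 in adipocytes (364), 28.7 in myeloid cells (79), 9.05 in ASPCs (30) and 4.08 in endothelial cells (1). Here adipocytes, myeloid cells and ASPCs had intervals that did not overlap each other. The ratio was 0.158 in ASPCs (interval 0.0959 to 0.257), 0.458 in myeloid cells (0.310 to 0.688) and 0.738 in adipocytes (0.595 to 0.921). It was 0.0976 in endothelial cells, where 1 count against 7 left an interval of 0.00216 to 0.759, and 1.42 in lymphocytes (0.709 to 2.60).

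Clock (chr5:76209868-76305603, 95736 bases) encodes the other member of the activator pair and cycles little in most tissues. Its levels lay between 109 CPM in lymphocytes and 265 CPM in adipocytes of the labelled-WT library, and between 108 and 174 CPM in the classes of the labelled-KO library. The ratio was 0.502 in adipocytes (0.452 to 0.558), 0.627 in ASPCs (0.517 to 0.765), 0.800 in myeloid cells (0.661 to 0.973), 0.976 in endothelial cells and 0.997 in lymphocytes. Clock was thus lower beyond counting error in 3 classes, and on this scale it passed 2-fold in none of these.

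Scaling by the trimmed mean of M-values (TMM), which sets the bulk of genes level, moved every log2 ratio by 0.29 in adipocytes, 0.10 in ASPCs, 0.18 in myeloid cells, −0.22 in lymphocytes and 0.17 in endothelial cells. Leaving mitochondrial genes and Malat1, an abundant nuclear RNA, out of the totals moved them by −0.25, −0.27, −0.21, −0.10 and −0.14. Of all pairs of gene and class tested, 23.6% were at least 2-fold higher and 14.7% lower, which became 25.9% and 12.4% under TMM and 19.8% and 21.2% without these genes. The 14 higher and 3 lower pairs of the members became 15 and 2, and 13 and 4. The lower pair gained without these genes was Clock in adipocytes (−1.25). Under TMM the intervals of Arntl (−0.15), Cry2 (−0.18) and Nr1d1 (−0.37) in adipocytes and of Clock (−0.14) in myeloid cells came to hold 0, and those of Cry1 (1.21) and Nr1d1 (0.80) in ASPCs no longer held it. Without mitochondrial genes and Malat1 the interval of Per1 (0.54) in ASPCs came to hold 0. The sign changed for Cry2 in ASPCs (−0.04 without these genes) and for Clock in endothelial cells (0.14 under TMM), both near 0 before. Arntl in ASPCs and myeloid cells, and Per2, Per3, Nr1d2 and Dbp in adipocytes, ASPCs and myeloid cells, kept their direction with intervals clear of 0 under both scalings.

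Among the repressors, the Per genes encode the proteins that enter the nucleus with CRY and shut the activators off. Per2 (chr1:91415977-91459351, 43375 bases) was between 4.69 and 13.4 CPM in the labelled-WT library (26 counts in adipocytes, 7 in ASPCs, 3 in myeloid cells, 1 in endothelial cells and 20 in lymphocytes). The labelled-KO library had 98.6 CPM in ASPCs (327 counts), 97.9 in endothelial cells (24), 53.2 in adipocytes (460) and 36.7 in myeloid cells (101). Its lymphocytes had 0 Per2 counts, which allows up to 3 counts or 13.02 CPM, above the 7.80 CPM of the other library. Per2 was 10.8 times higher in ASPCs (interval 5.20 to 27.1), 7.81 times in myeloid cells (2.60 to 38.5) and 3.98 times in adipocytes (2.68 to 6.16). The low counts of the labelled-WT library set the width of these intervals.

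Per3 (chr4:150997018-151044707, 47690 bases) encodes the PER protein that is least needed for the rhythm. Its levels were 128 CPM in adipocytes, 114 in endothelial cells, 82.0 in ASPCs, 42.2 in myeloid cells and 18.3 in lymphocytes of the labelled-WT library. In the labelled-KO library they were 321, 81.6, 273, 78.8 and 21.7 CPM in the same order of classes. Adipocytes stood first and lymphocytes last in both libraries. The ratio was 3.33 in ASPCs (2.58 to 4.38), 2.51 in adipocytes (2.20 to 2.86) and 1.87 in myeloid cells (1.25 to 2.90), and its interval held 1 in endothelial cells (0.719, 0.364 to 1.42) and lymphocytes (1.18, 0.368 to 2.96).

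Per1 (chr11:69095108-69109965, 14858 bases), which stress hormones as well as the activators induce, was between 20.7 and 53.8 CPM in the labelled-WT library. The labelled-KO library had 110 CPM in endothelial cells (27 counts) and 109 in myeloid cells (299), against 65.5 in adipocytes and 64.2 in ASPCs. Per1 was 3.85 times higher in myeloid cells (2.40 to 6.59), 1.76 times in ASPCs (1.19 to 2.72) and 1.57 times in adipocytes (1.24 to 2.01). Lymphocytes had 53 counts (labelled WT) and 2 counts (labelled KO), a ratio of 0.420 whose interval was 0.0496 to 1.59. That pair was past 2-fold, so it is 1 of the 3 lower pairs, and it rests on 2 counts. When nuclei with at least 1000 genes were clustered anew, which changed both the filter and the members of the class (345 and 98 nuclei), the levels were 20.03 and 52.4 CPM, the other way round.

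Cry1 (chr10:85131700-85185054) and Cry2 (chr2:92403646-92434085) encode the cryptochromes, the strongest blockers of ARNTL and CLOCK. Cry1 was at 5.14 to 17.9 CPM in the labelled-WT library and 7.75 to 36.7 CPM in the labelled-KO library. It was 3.19 times higher in myeloid cells (1.18 to 12.1), and the intervals held 1 in ASPCs (2.16, 0.934 to 6.15) and adipocytes (1.51, 0.771 to 3.29). Of the 2 main myeloid clusters of the labelled-KO library, the smaller had 29.7 CPM of Cry1 (19.7 to 42.9). The larger had 15.1 CPM (9.94 to 22.0), which overlapped the 6.26 CPM (1.70 to 16.0) of labelled-WT myeloid cells. Cry2 was the only one of the Per and Cry genes with a ratio below 1 in adipocytes, at 105 CPM (labelled WT) and 75.7 CPM (labelled KO), a ratio of 0.721 (0.615 to 0.848). Its ratio was 1.18 in ASPCs (0.857 to 1.66) and 1.18 in myeloid cells (0.719 to 2.05), within counting error of 1.

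The REV-ERB genes gave unequal results. Nr1d2 (chr14:18204056-18239106, 35051 bases) was between 28.3 and 47.8 CPM in the 5 classes of the labelled-WT library, where the intervals of neighbours in the order overlapped. The labelled-KO library had 254 CPM in adipocytes (2197 counts), 146 in myeloid cells (402), 139 in ASPCs (461), 127 in endothelial cells (31) and 39.0 in lymphocytes (9). Adipocytes stood above the rest and lymphocytes below. The ratio was 8.99 in adipocytes (6.88 to 11.97), 3.96 in ASPCs (2.68 to 6.07), 3.33 in myeloid cells (2.27 to 5.08), 2.65 in endothelial cells (1.19 to 6.66, under 50 counts) and 0.992 in lymphocytes (0.441 to 1.96).

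Nr1d1 (chr11:98767932-98775377, minus strand, 7446 bases) shares 1075 bases at its 3′ end with Thra, a thyroid hormone receptor gene on the other strand, whose ratio in adipocytes was 0.799. Nr1d1 was at 31.4 CPM in adipocytes of the labelled-WT library and at 19.9 CPM in those of the labelled-KO library (ratio 0.634, 0.471 to 0.864), and so lower in the nuclei in which Nr1d2 was higher. The ASPC levels were 20.8 and 33.8 CPM (1.62, 0.957 to 2.94), and myeloid cells had 5 and 34 counts. After the ratio was divided by the median ratio of the 500 genes nearest in length, the log2 ratio of Nr1d1 in adipocytes moved from −0.66 to −0.01.

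Dbp (chr7:45705100-45710203, 5104 bases) encodes the D-box activator and is a direct output of the loop. The labelled-WT library had 8.23 CPM in adipocytes (16 counts), 5.20 in ASPCs (4), 12.5 in myeloid cells (8), 29.9 in endothelial cells (5) and 11.7 in lymphocytes (30). The labelled-KO library had 20.6, 46.7, 37.4, 53.1 and 34.7 CPM in the same order of classes, all above their counterparts. The ratio was 8.98 in ASPCs (3.44 to 33.4), 2.99 in myeloid cells (1.46 to 7.10), 2.50 in adipocytes (1.50 to 4.47), 2.97 in lymphocytes (1.18 to 6.63, under 50 counts) and 1.78 in endothelial cells (0.594 to 6.36).

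Barcodes with under 500 genes, left out of the classes, can hold free RNA, debris or small nuclei, and which of these they held was not tested. They had 52.5 CPM of Dbp in the labelled-KO library (76 counts, 41.3 to 65.7) and 2.29 CPM in the labelled-WT library (1 count). The Dbp level of no class in the labelled-KO library stood above that of its low-gene barcodes beyond counting error, and in adipocytes it lay below. No class of the labelled-KO library stood above the Nr1d1 level of these barcodes, 21.4 CPM (14.5 to 30.4), beyond counting error. Adipocytes overlapped it at 19.9 CPM (17.0 to 23.1), and ASPCs came closest to an exception at 33.8 CPM (27.8 to 40.6). For Per3 (27.6 CPM in these barcodes), Per2 (11.04), Per1 (20.02) and Nr1d2 (83.5), adipocytes, ASPCs and myeloid cells of the labelled-KO library stood above this level with intervals that did not overlap it. For Per3, Per2 and Nr1d2 in myeloid cells this came from the larger of the 2 main clusters, since the cluster led by St18 and Dcstamp was at 24.4, 11.7 and 64.7 CPM. Endothelial cells of the labelled-KO library also stood above these barcodes for Per3, Per2 and Per1. They carried adipocyte markers at 27.0% of the adipocyte level, and the levels given here are not corrected for adipocyte RNA. Their Nr1d2 interval (86.0 to 179.6 CPM) overlapped that of the barcodes (69.3 to 99.8 CPM). The part of free RNA in the Dbp result was not tested.

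**Figure D2:**
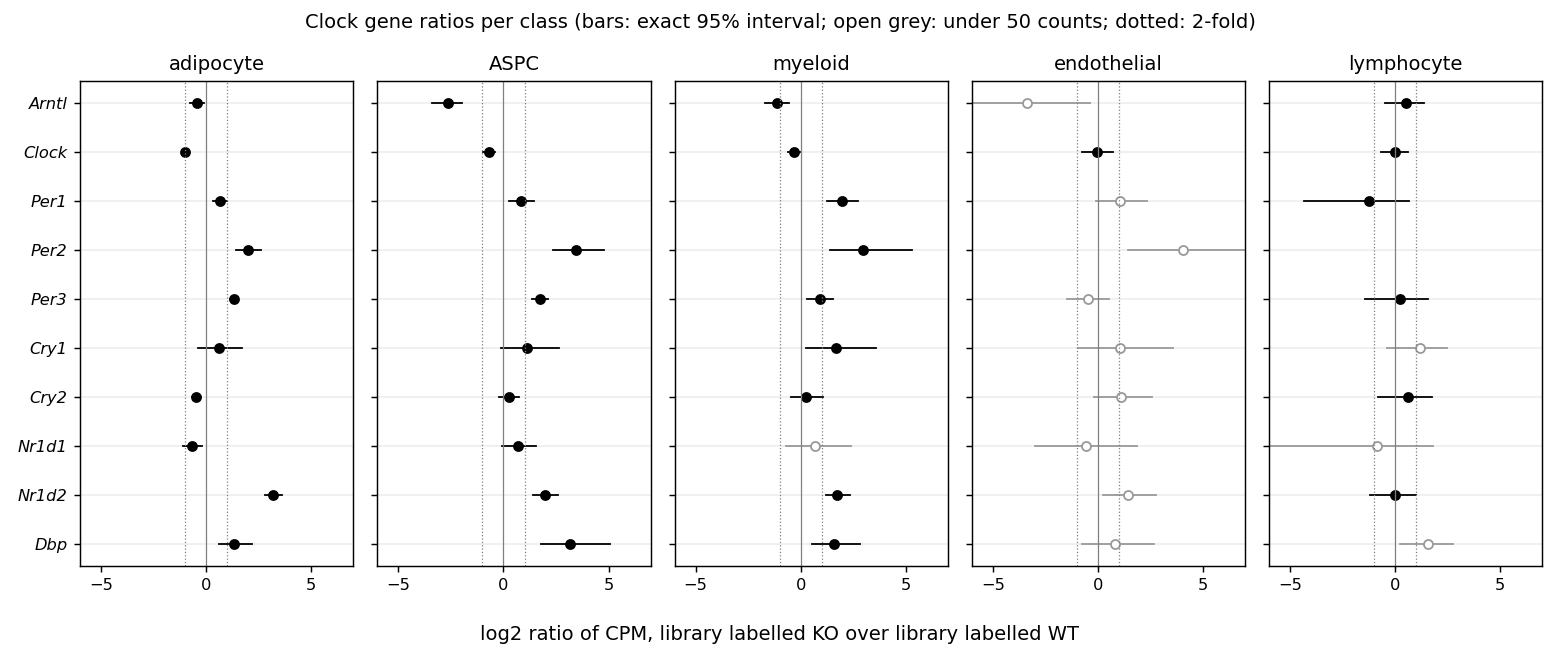
Log2 ratio of CPM, labelled KO over labelled WT, for each clock gene in 5 classes, with exact 95% intervals cut at the panel edges, open grey points for pairs under 50 counts and dotted lines at 2-fold. Per2 in lymphocytes is left out because its count was 0 in the labelled-KO library. Arntl and Clock lie at or left of 0 in the first 4 panels and Per2 and Nr1d2 lie right of it.

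Counts of members were read against all genes of the same class. In adipocytes 4 of 10 members were at least 2-fold higher and 0 at least 2-fold lower, where 26.0% of 11350 genes with at least 50 counts were higher and 17.6% lower. In ASPCs 5 of 10 were higher and 1 lower (24.9% and 8.60% of 9281 genes). In myeloid cells 5 of 9 were higher and 1 lower (24.4% and 12.8% of 8608 genes). In lymphocytes 0 of 6 were higher and 1 lower (16.1% and 19.6% of 7940 genes), and in endothelial cells 0 of the 1 member with enough counts passed either way (32.4% and 16.0% of 1729 genes). The share of higher members was above that of all genes in ASPCs and myeloid cells. In adipocytes, at 4 of 10, it was not far from that of all genes. The median log2 ratio of the members was 0.62 in adipocytes, 0.97 in ASPCs and 1.58 in myeloid cells, beside −0.01, 0.14 and 0.08 over all genes tested. For those of the 22 other clock genes with at least 50 counts (18, 17 and 12) it was 0.66, 0.84 and 0.44.

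Ratios between these libraries followed gene length. In adipocytes the median log2 ratio was −0.74 for genes up to 10000 bases, −0.28 up to 30000, 0.30 up to 100000 and 1.38 beyond (95.6% of tested genes had a length in RefSeq). The slope had the same sign in the other 4 classes. Arntl and Clock, the longest members, lay below genes of like length, and Dbp, the shortest, lay above. Relative to the 500 genes nearest in length, the log2 ratio in adipocytes was −1.45 for Arntl, −1.60 for Clock, 2.15 for Dbp, 3.13 for Nr1d2, 1.73 for Per2 and 1.03 for Per3. On that scale 5 members were at least 2-fold higher and 2 lower in adipocytes (21.4% and 12.4% of all genes, those without a length left as they were), 6 and 2 in ASPCs (16.2% and 9.61%), 5 and 2 in myeloid cells (17.3% and 11.3%) and 0 and 0 in lymphocytes (15.0% and 13.5%). The lower members on that scale were Arntl and Clock in adipocytes, ASPCs and myeloid cells. The part of length in each level itself was not tested.

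**Figure D3:**
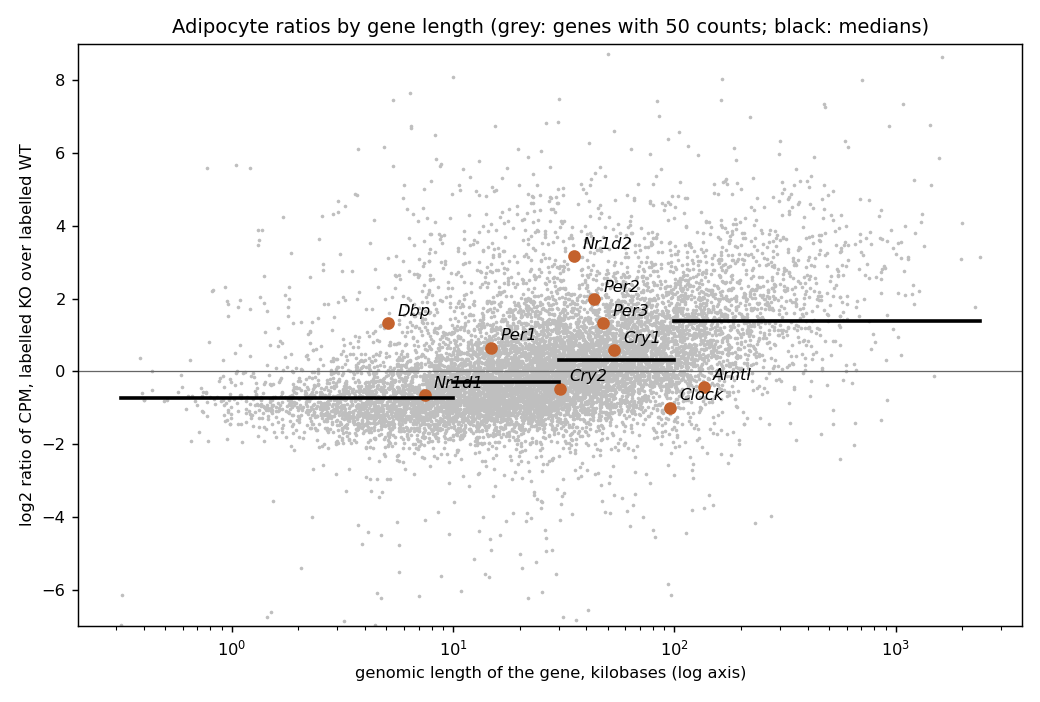
Log2 ratio of CPM in adipocytes against genomic length in kilobases (log axis), grey for the genes with at least 50 counts, orange for the clock genes, and black bars for medians of 4 length groups, from −0.74 to 1.38. Arntl and Clock lie below genes of their length and Dbp, Nr1d2, Per1, Per2 and Per3 above, while Cry1, Cry2 and Nr1d1 lie near or below the medians.

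To ask whether the cells of a library shared 1 phase, Arntl was taken as a percentage of the summed UMIs of Arntl and the 6 output genes Dbp, Nr1d1, Nr1d2, Per1, Per2 and Per3. A ratio within a class does not depend on how the class total was scaled. Its size also depends on how well each gene is captured, so only differences between units are read. For the labelled-WT library the percentage was 18.5% in adipocytes (111 of 599 UMIs, exact interval 15.5 to 21.9), 23.3% in ASPCs (17.5 to 29.96), 31.0% in myeloid cells (23.2 to 39.7), 25.8% in lymphocytes (21.3 to 30.6) and 13.2% in endothelial cells (5.48 to 25.3). For the labelled-KO library it was 5.42% in adipocytes (364 of 6711, 4.89 to 5.99), 1.36% in ASPCs (0.920 to 1.94), 6.40% in myeloid cells (5.10 to 7.91) and 0.833% in endothelial cells (0.0211 to 4.56). These 4 classes thus lay below their counterparts without overlap of the intervals. Lymphocytes of the labelled-KO library were at 32.4% (12 of 37, 18.0 to 49.8), which overlapped the lymphocytes of the labelled-WT library and lay above the other 4 classes of their own library.

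The log2 odds of Arntl against the output genes, labelled KO over labelled WT, were −1.99 in adipocytes (interval −2.33 to −1.64), −2.72 in myeloid cells (−3.37 to −2.04), −4.18 in endothelial cells (−9.68 to −1.13) and −4.46 in ASPCs (−5.22 to −3.70). The interval of ASPCs did not overlap that of adipocytes or of myeloid cells, while the intervals of adipocytes and myeloid cells overlapped. The shift was thus shared in direction by these classes. Barcodes with under 500 genes had an Arntl share of 20.4% (labelled WT) and 2.19% (labelled KO), lower in the same library. The part of free RNA in the shift was not tested in these barcodes. The size of the shift stood apart in ASPCs. With Arntl, Clock and Npas2 summed, the ASPC value was −2.70, so that size depended on the genes counted. In lymphocytes the value was 0.47 (−0.72 to 1.58), an interval that did not overlap those of the other 4 classes. It was −0.43 when nuclei with at least 1000 genes were clustered anew, so that other nuclei entered the class, and −0.76 after the length correction, so its sign depended on the processing. The lymphocytes were of different kinds in the 2 libraries, and kind and library cannot be told apart.

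Each output gene was also set against Arntl alone. In ASPCs the log2 odds ranged from −3.36 for Nr1d1 to −6.10 for Per2, and in myeloid cells from −1.78 for Nr1d1 to −4.09 for Per2, with every interval below 0. In adipocytes 5 of the 6 genes lay below 0, from −1.09 for Per1 to −3.61 for Nr1d2. The exception was Nr1d1, at 0.22 (−0.33 to 0.76). In endothelial cells, with 1 Arntl count in the labelled-KO library, all 6 genes lay below 0, and the intervals of Nr1d1 (−8.62 to 1.27) and Per3 (−8.44 to 0.34) held 0. In lymphocytes the intervals of the 5 genes with counts in both libraries all held 0.

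**Figure D4:**
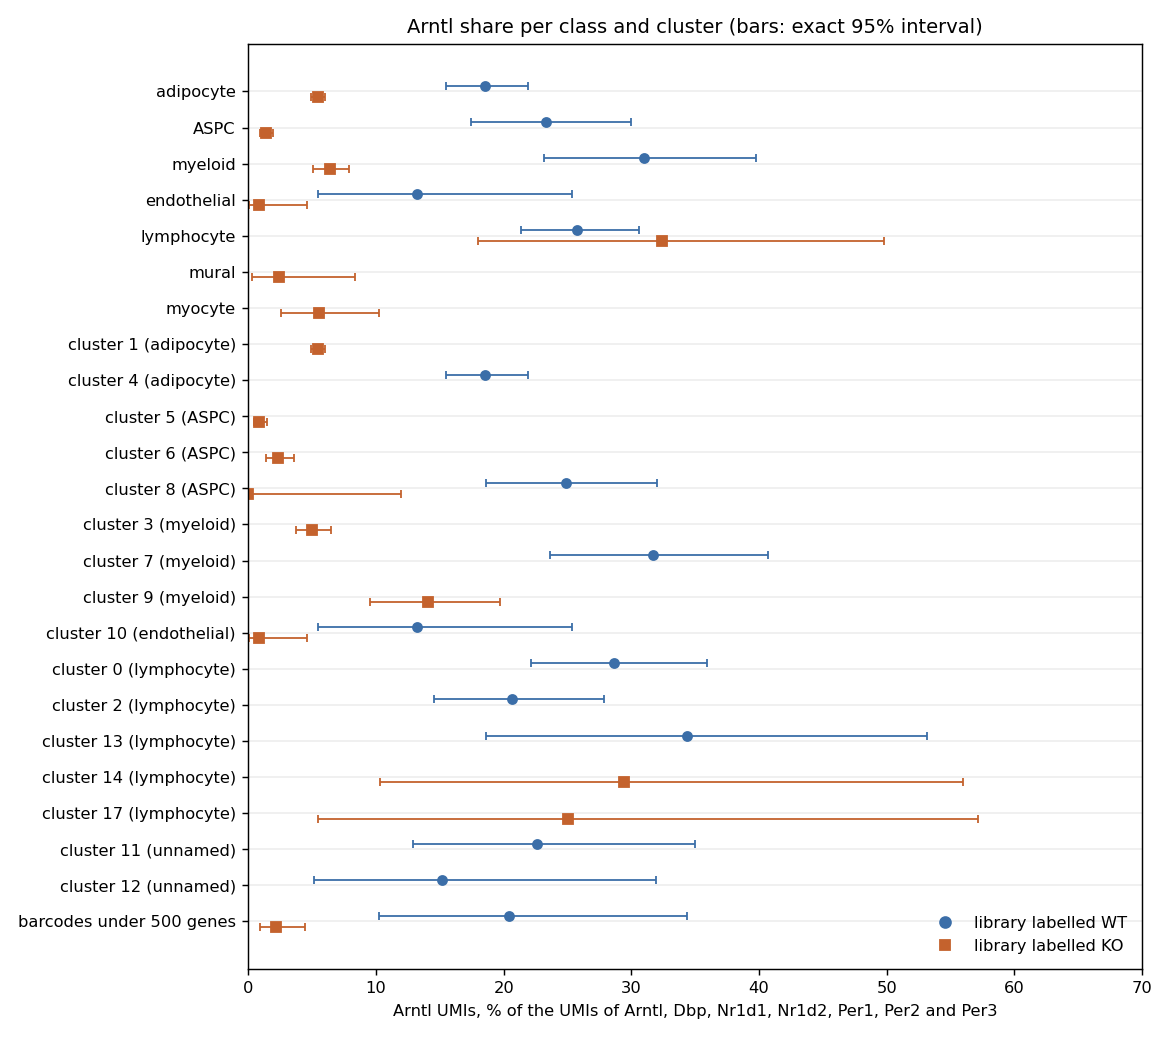
Arntl UMIs as a percentage of the UMIs of Arntl and 6 output genes, per class, per cluster with at least 30 nuclei in a library, and in barcodes with under 500 genes, with exact 95% intervals. Units of the labelled-KO library (squares) lie between 0 and 14.1%, except the lymphocyte class and clusters at 25 to 32.4%, and units of the labelled-WT library (circles) lie between 13.2% and 34.4%.

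The Arntl share was also read by cluster. Most clusters lay mostly in 1 library, so their values divide those of the classes and give no separate support. The 2 ASPC clusters of the labelled-KO library were at 0.818% (382 nuclei, led by Ccbe1 and Sfrp2) and 2.29% (373 nuclei, led by Sema3e and Sntg1), and an ASPC cluster that held nuclei of both libraries was at 24.9% in the labelled-WT library (295 nuclei) and at 0 of 29 UMIs in the labelled-KO library (31 nuclei, up to 11.9%). Myeloid nuclei of the labelled-KO library were split. The cluster led by the macrophage genes Ms4a4a and Vsig4 (542 nuclei) was at 4.95% (3.70 to 6.45), and the cluster led by St18 and Dcstamp (277 nuclei) at 14.1% (9.56 to 19.7). The first had 190 CPM of Nr1d2, 107 of Per3 and 50.3 of Per2, and the second 64.7, 24.4 and 11.7 CPM, while Arntl was at 28.5 and 29.7 CPM. Dbp was at 52.5 CPM in the first and 9.55 CPM in the second. The myeloid clusters thus differed in the output genes and not detectably in Arntl. Against myeloid cells of the labelled-WT library (42.2 CPM of Per3 and 12.5 of Dbp), the second cluster was lower in both, with overlapping intervals. Its intervals for Nr1d2 and Per2 also overlapped theirs. Per1 (66.9 CPM, 51.4 to 85.5) and Cry1 (29.7 CPM, 19.7 to 42.9) were higher in the second cluster than in those cells (28.2 and 6.26 CPM). Arntl was lower there (29.7 against 62.6 CPM), and the intervals of Per1, Cry1 and Arntl did not overlap. The natural killer-type cluster of the labelled-KO library was at 29.4% (5 of 17 UMIs, 10.3 to 56.0), and the B and T cell clusters of the labelled-WT library were at 28.7% and 20.6%.

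Adipocyte RNA in the other classes was followed by the 8 adipocyte markers. Relative to adipocytes of the same library, their summed CPM was 8.43% in ASPCs, 6.29% in myeloid cells, 6.68% in lymphocytes and 8.70% in endothelial cells of the labelled-WT library, and 6.71%, 9.82%, 10.2% and 27.0% in the labelled-KO library. When adipocyte RNA was subtracted in proportion to these markers, the log2 odds were −4.93 in ASPCs, −2.76 in myeloid cells, −1.80 in endothelial cells and 1.37 in lymphocytes. In ASPCs, myeloid cells and lymphocytes the directions were those found before subtraction. In endothelial cells of the labelled-KO library, subtraction left nothing of the 1 Arntl count. The limit of 3 counts was put in its place, so the endothelial value, −4.18 before, shows neither a direction nor a move.

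To compare detection, each nucleus was thinned to 1000 UMIs, and nuclei below that depth were left out (10 and 5 adipocytes, 38 and 23 ASPCs). Per3 was detected in 10.1% of 407 adipocytes of the labelled-WT library and 32.4% of 889 of the labelled-KO library (35.7% and 85.3% before thinning). For Nr1d2 the shares were 1.97% and 14.2% (10.6% and 59.2% before thinning). Arntl was detected in 6.14% and 2.81% of adipocytes (21.1% and 23.7% before thinning) and in 8.40% and 1.44% of ASPCs (13.7% and 3.31%). After thinning the differences thus had the directions of the summed levels. The clock runs in all classes studied, so no class served as one that lacks these genes. Among lymphocytes, in which 1021 and 15 nuclei were left out, Nr1d2 was detected in 3.80% of 1079 nuclei and 4.35% of 92.

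Of the 22 other clock genes listed, which act beside the members, 18 had at least 50 counts in adipocytes, and 6 were at least 2-fold higher and 1 lower in the labelled-KO library (26.0% and 17.6% of all adipocyte genes tested). The share of higher ones was not far from that of all genes. The highest ratios were those of Rora (12.7, 93.1 to 1180 CPM), which encodes the ROR activator of Arntl, Fbxw11 (5.58) and Btrc (3.39), which encode ubiquitin ligase subunits that mark PER proteins for breakdown. Among the lowest were those of Noct (0.468, 291 to 136 CPM), a rhythmic gene, and Csnk1e (0.608), a kinase gene for PER. Rora, Btrc and Fbxw11 are each over 100000 bases long, and relative to genes of like length their log2 ratios fell from 3.66 to 1.56, from 1.76 to 0.55 and from 2.48 to 1.72. In ASPCs 17 of these genes had enough counts, and 8 were higher and 1 lower (24.9% and 8.60% of all genes). Hlf and Tef, the relatives of Dbp that bind the same D-box, were among the higher, with Hlf at 1 and 119 counts and Tef at 39.0 and 177 CPM. Neither was past 2-fold higher in adipocytes (ratios of 1.21 for Hlf and 1.999 for Tef) or in myeloid cells (5 and 4 counts of Hlf, a ratio of 1.72 for Tef). Noct was the lower one, at 65.1 and 16.9 CPM. In myeloid cells 4 of 12 were higher and 1 lower (24.4% and 12.8% of all genes), in lymphocytes 3 of 9 were higher and 3 lower (16.1% and 19.6%), and in endothelial cells the 1 gene with enough counts was higher (32.4%).

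Glucocorticoid-induced genes, which follow the daily hormone rhythm and stress, were listed beside the clock genes. Fkbp5, a chaperone gene of the glucocorticoid receptor, was at 17.0 CPM (labelled WT) and 805 CPM (labelled KO) in adipocytes, at 61.1 and 816 CPM in ASPCs, at 12.5 and 1155 CPM in myeloid cells, at 215 and 424 CPM in endothelial cells and at 43.3 and 234 CPM in lymphocytes. Fkbp5 was thus also higher in lymphocytes (5.41 times, 3.84 to 7.56), where Nr1d2 and Per3 were not. Dbp was higher there too (2.97 times, 1.18 to 6.63, under 50 counts). The lymphocytes compared were of different kinds in the 2 libraries. Of the 4 genes of this list, 3 were at least 2-fold higher in adipocytes, ASPCs and myeloid cells, where 26.0%, 24.9% and 24.4% of all genes were, and Sgk1, a kinase gene, was not (0.815, 0.613 and 0.473, the last of these past 2-fold lower). In lymphocytes 1 of the 3 with enough counts was higher (16.1% of all genes), and in endothelial cells 1 of 4 (32.4%). Of 8 immediate-early genes, which respond to handling, 6 had enough counts in adipocytes. Of these 0 were at least 2-fold higher (26.0% of all genes) and 1, Fos, was lower (17.6%). The log2 ratio of Fos, −1.01, was −0.72 under TMM and −0.11 after length correction. With that correction 1 of these genes was higher and 0 lower (21.4% and 12.4%). In ASPCs 1 of 6 was higher and 0 lower (24.9% and 8.60%), in myeloid cells 0 of 6 were higher and 1 lower (24.4% and 12.8%), and in lymphocytes 0 of 4 were higher and 1 lower (16.1% and 19.6%). Their part in the clock gene differences was not tested.

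Over the 10 units of class and library, log2(CPM + 1) of Arntl had a Pearson r of −0.73 with Per2, −0.70 with Dbp and −0.68 with Cry1. The r of Arntl was −0.59 with Per1, −0.57 with Nr1d2, −0.38 with Cry2, −0.28 with Per3, −0.27 with Nr1d1 and 0.27 with Clock. Per1 and Per2 had an r of 0.88. The 5 units of a library share its preparation, depth and free RNA, so these values describe the units and are not independent. The genes most like Arntl in this measure, among 11350, were 4930539J05Rik (r 0.97), Mvd (0.95), Jade1 (0.93), Arrdc2 (0.91) and Utp14b (0.91). Those most like Dbp were Anxa11, Zmat5, Usp54, Ppm1e and Lrrc28, with r from 0.94 to 0.95.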

How the data were processed

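The authors deposited raw UMI counts per gene and barcode, made by Cell Ranger, whose version was 6.1.1 in the headers. The submitters' processing notes name mm10 and Seurat 4. Whether intronic reads were counted is not given in the sources used here. The members, gene lists and marker lists were chosen with earlier results of these data known. Scrublet (scanpy 1.11.5) scored doublets. Its own threshold removed 92 nuclei (3.12%) of the library labelled KO. It marked 0 in the library labelled WT, where the 4% with the highest scores (146) were removed instead. Nuclei of both libraries were merged and clustered in R 4.3.3 with Seurat 5.3.0 (2000 variable genes, 20 principal components, resolution 0.5). A cluster took a class name from at least 3 of its markers (detected in at least 5% of nuclei, at 2 times the mean of other clusters), with a lead of 3 over the next class. A cluster led by Ccl19 and Ccl21a was left unnamed after its genes were seen.

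Counts were summed per class and library and given as CPM with exact Poisson intervals. Ratios have exact conditional binomial intervals and shares Clopper-Pearson intervals, all at 95% (scipy 1.17.1). No test was made, since each genotype had 1 library. A member was called past 2-fold with at least 50 counts over both libraries. The genes named beside the members were the 3 highest and 3 lowest ratios of the other clock genes in adipocytes and the 5 genes most like Arntl and Dbp. One gene that this rule names is not reported here. Sgk1, Fos, Hlf and Tef were named after their values were seen. Lengths and promoters came from RefSeq on GRCm38.p6. The calls and intervals were tested on simulated data. TMM scaling used edgeR 4.0.16. The alternatives tried were other nucleus and count filters, doublets kept, resolution 0.2, classes from each nucleus's markers, subtraction of adipocyte RNA, other scalings, and correction for length.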

Additional observations from a re-analysis of the deposited data

Results flagged for a closer look

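The log2 odds of Arntl against the output genes in lymphocytes, 0.47, differed from those of the other 4 classes, which lay between −4.46 and −1.99. This difference between classes was not tested, and the value turned negative under 2 alternatives, of which the filter of at least 1000 genes also changed the nuclei in the class.

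Arntl was also counted in nuclei and barcodes outside the comparison of classes. Mural cells of the library labelled KO (44 nuclei) had an Arntl share of 2.38% (2 of 84 UMIs) and myocytes (52 nuclei) of 5.52% (9 of 163 UMIs), and neither class could be compared because the library labelled WT held 10 and 0 of these nuclei. Barcodes with under 500 genes were at 20.4% in the library labelled WT (10 of 49 UMIs, interval 10.2 to 34.3) and at 2.19% in the library labelled KO (7 of 320 UMIs, 0.884 to 4.45).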

How the results depend on the processing

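Over all alternatives run, the log2 odds of Arntl kept their sign in adipocytes (−2.96 to −1.55), ASPCs (−5.44 to −2.70), myeloid cells (−3.91 to −2.07) and endothelial cells (−5.37 to −1.16), and in lymphocytes they ran from −0.76 to 1.42. The endothelial value after subtraction of adipocyte RNA rests on the limit of 3 counts for Arntl. After length correction the log2 odds were −2.96 in adipocytes, −5.44 in ASPCs, −3.91 in myeloid cells and −0.76 in lymphocytes. With Arntl, Clock and Npas2 summed they were −2.37 in adipocytes and −2.70 in ASPCs, and without Nr1d2 −1.55 in adipocytes. The number of pairs at least 2-fold higher stayed between 12 and 20. The 3 lower pairs became 1 at resolution 0.2 and with at least 100 counts, and 6 after length correction. The share of all pairs of gene and class that were lower, 14.7%, was then 15.5% (resolution 0.2), 12.8% (at least 100 counts) and 11.7% (length correction), and over all these alternatives 18.0% to 25.9% were higher. Of the other clock genes, the lower ones became 0 in adipocytes and in myeloid cells with TMM scaling and with length correction (9.74% and 12.4% of all genes in adipocytes, 8.74% and 11.3% in myeloid cells). In ASPCs they became 2 without mitochondrial genes and Malat1 (16.5% of all genes) and 3 with length correction (9.61%), and in myeloid cells 2 without mitochondrial genes and Malat1 (18.7%). The 4 higher ones in myeloid cells became 2 with length correction (17.3%). Under these alternatives the higher ones ran from 5 to 8 in adipocytes (21.4% to 31.2% of all genes) and from 6 to 8 in ASPCs (16.2% to 27.1%). In lymphocytes the 3 higher and 3 lower ones became 1 and 2 with length correction (15.0% and 13.5%). The cause of these changes was not tested. With classes taken from each nucleus's own markers, endothelial cells had under 50 nuclei and gave no value. Depth limits endothelial cells and lymphocytes of the library labelled KO, where each of the 10 members had under 50 counts in that library. No paired analysis was possible because each genotype had 1 library.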
